A study of Homo sapiens with 6 samples.

Results

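ATF4, TRIB3, SESN2, DDIT3 and DDIT4 are 5 genes of nutrient and endoplasmic reticulum stress signalling, and were taken from the deposited table by gene name. All 5 were present among its 3511 genes. The cells were RKO, an established human colorectal carcinoma line, labelled wild type for genotype and kept as a single line in every library. The control group (3 libraries) had 48 h in medium with 10% fetal bovine serum and 4.5 g/L glucose. The fasting group (3 libraries) had 48 h in medium with 1% serum and 1 g/L glucose, so serum and glucose were lowered together and their parts cannot be told apart. Both media were DMEM with antibiotics. The comparison asks how this stress pathway's transcripts differ between cells in the control and the fasting medium.

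The integrated stress response starts when one of several kinases phosphorylates the translation initiation factor eIF2, which lowers general protein synthesis while the mRNA of ATF4 is translated more. ATF4 is a basic leucine zipper (bZIP) transcription factor that turns on genes for amino acid uptake and synthesis, tRNA charging and further stress regulators. DDIT3, also called CHOP, is a bZIP partner tied to cell death under lasting stress, and TRIB3 is a pseudokinase that binds ATF4, DDIT3 and the kinase AKT. SESN2, or sestrin 2, is a leucine sensor that holds back mTORC1, the kinase complex that promotes growth, by binding its activator GATOR2. DDIT4, or REDD1, holds back mTORC1 through the TSC complex. ATF4 is regulated largely at translation and protein stability, and the values here are of mRNA alone.

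All 5 genes were higher in fasting medium, between 4.37-fold for ATF4 and 15.0-fold for DDIT3. Each passed the limma test (adjusted p under 0.05), and in each the 3 fasting values lay above all 3 control values. The table lists only genes that the authors had called, 11.8% of the 29845 genes they tested. Of all listed genes 49.7% passed as higher, which is 5.85% of the genes tested, and in 50.2% all fasting values lay above all control values. A further 44.6% passed as lower, so that 94.3% passed in either direction (11.1% of the genes tested), and in 100% of listed genes the groups did not overlap in one direction or the other. Being called is thus the rule in this table, and the sizes and patterns of the changes are what the following values describe. The median log2 fold change was 3.20 over the 5 genes and 0.53 over all listed genes.

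Values are normalized counts: the reads of a gene after division by its library's size factor. ATF4 (ENSG00000128272), the transcription factor at the head of the group, had 2367, 2352 and 2552 normalized counts in control replicates 1 to 3. It had 9529.6, 9302 and 13421 in fasting replicates 1 to 3. The controls lay close together, and fasting replicate 3 was above the other fasting libraries. The means were 2424 ± 111 in control and 10751 ± 2315 in fasting medium (SD, n = 3 each). The log2 fold change was 2.13 with a standard error of 0.14 (limma adjusted p = 9.38e-05).

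TRIB3 (ENSG00000101255), the pseudokinase, had 830.4, 853 and 871 normalized counts in the controls. In fasting replicates 1 to 3 it had 6708, 6946 and 10415. Again the controls were tight (coefficient of variation 2.41%), fasting replicates 1 and 2 were close, and replicate 3 was highest. The means of 852 ± 20.6 and 8023 ± 2075 (SD, n = 3 each) gave a log2 fold change of 3.20 with a standard error of 0.16 (limma adjusted p = 3.01e-05).

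SESN2 (ENSG00000130766), the leucine sensor, had 506, 517 and 589 normalized counts in the controls and 5325, 5245 and 5548 in fasting medium. The 3 fasting libraries were nearly level, with a coefficient of variation of 2.93%, against 21.5% for ATF4 and 25.9% for TRIB3. The means were 537 ± 44.9 and 5373 ± 157 (SD, n = 3 each), a 10.0-fold rise. The log2 fold change was 3.32 with a standard error of 0.09 (limma adjusted p = 2.80e-06).

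DDIT3 (ENSG00000175197), the bZIP partner CHOP, had 41.4, 42.6 and 42.9 normalized counts in the controls and 506, 555 and 972 in fasting replicates 1 to 3. It had the widest fasting spread of the 5 genes, with a coefficient of variation of 37.7%. Its rise was the largest of the 5 as deposited, but with each library's trend with transcript length removed its log2 fold change was 3.28, below the 3.34 of SESN2. Its means were 42.3 ± 0.78 and 678 ± 256 (SD, n = 3 each), and its log2 fold change was 3.91 with a standard error of 0.23 (limma adjusted p = 5.60e-05). Of the 1307 exonic bases of DDIT3 in GENCODE v29, 355 overlap MARS1 and 58 overlap MBD6 on the opposite strand, and 105 overlap the transcript AC022506.1 on the same strand. MARS1 rose by 0.61 and MBD6 by 0.58 on the log2 scale. The library kit keeps the strand, but no source used here says whether counting did, and the count of DDIT3 is uncertain to that extent.

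DDIT4 (ENSG00000168209), the mTORC1 inhibitor REDD1, had 124, 126 and 122 normalized counts in the controls. In fasting medium it had 578, 609.8 and 705. The fasting values were again highest in replicate 3, by less than for ATF4. Its means were 124 ± 2.18 and 631 ± 66.5 (SD, n = 3 each), a 5.03-fold rise, with a log2 fold change of 2.33 and a standard error of 0.11 (limma adjusted p = 2.28e-05). Of its 2058 exonic bases, 847 overlap the antisense gene DDIT4-AS1, which is not listed in the table. ATF4, TRIB3 and SESN2 overlap no other annotated exon. ATF4 has pseudogene copies elsewhere in the genome, none of which is listed, and how reads shared with them were counted is not known here.

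**Figure D1:**
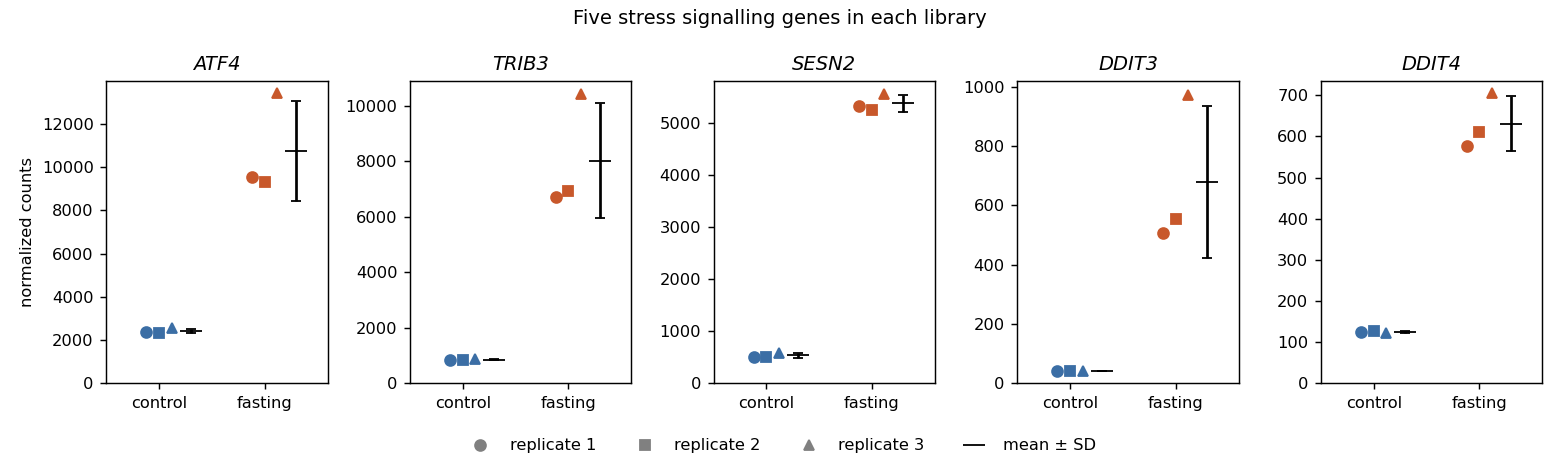
Normalized counts of ATF4, TRIB3, SESN2, DDIT3 and DDIT4 in each of the 6 libraries, on linear axes that start at 0 and differ between panels. Points are libraries, their shape gives the replicate number, and black bars are the mean ± SD of each group. In every panel the 3 fasting points lie above the 3 control points, and in the ATF4, TRIB3 and DDIT3 panels fasting replicate 3 stands above the other fasting points.

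Across the 5 genes the lowest fasting value was 3.65 times the highest control value for ATF4, 7.70 times for TRIB3, 8.91 times for SESN2, 11.8 times for DDIT3 and 4.57 times for DDIT4. By log2 fold change DDIT3 ranked 32, SESN2 61, TRIB3 66, DDIT4 178 and ATF4 217 among the 3511 listed genes. The authors' deposited table gives log2 fold changes of 2.15, 3.24, 3.32, 4.0 and 2.34 for ATF4, TRIB3, SESN2, DDIT3 and DDIT4, with a highest adjusted p of 5.54e-07, for DDIT3.

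Fasting replicate 3 stood apart from the other libraries of its group, and its difference from them followed transcript length. The chi-square per gene over listed genes was 1.86 between fasting replicates 1 and 2, but 46.4 and 44.1 between each of them and replicate 3 (2.13 to 6.57 between controls). For the 962 genes with the shortest transcripts (78 to 2740 bases), the median log2 difference of replicate 3 from replicates 1 and 2 was 0.37. For the next 962 genes this median was 0.02, and for the 962 with the longest transcripts (4511 to 22743 bases) it was -0.38. Reads in listed genes numbered 4017618 to 5602177 per library, and total depth is unknown. Of 10 epithelial markers only KRT18 is listed, and none of 8 markers of leukocytes, fibroblasts and endothelium is. Being listed means that the authors called a change, so an unlisted marker may still be expressed. The label's tissue of origin was thus not checked.

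The 5 genes follow this length order only in part. In fasting replicate 3, DDIT3 (transcript of 1067 bases) was 0.87 log2 units above the other fasting libraries, ATF4 (2019 bases) 0.51 and TRIB3 (2499 bases) 0.61. DDIT4 (1748 bases) was 0.25 above them, although its transcript is shorter than those of ATF4 and TRIB3. SESN2, with the longest transcript of the 5 (3453 bases), was 0.07 above them. Without fasting replicate 3 the log2 fold changes were 1.96 for ATF4, 3.00 for TRIB3, 3.30 for SESN2, 3.62 for DDIT3 and 2.25 for DDIT4, and all 5 still passed. With the length trend of each library removed they were 1.85, 3.01, 3.34, 3.28 and 2.0 in the same order, so that SESN2 and no longer DDIT3 had the largest. For ATF4, DDIT3 and DDIT4 these values were below those without fasting replicate 3, and for TRIB3 and SESN2 slightly above. Whether fasting replicates 1 and 2 also differed from the controls by length was not tested separately. The part of RNA quality in the difference of fasting replicate 3 was not tested.

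**Figure D2:**
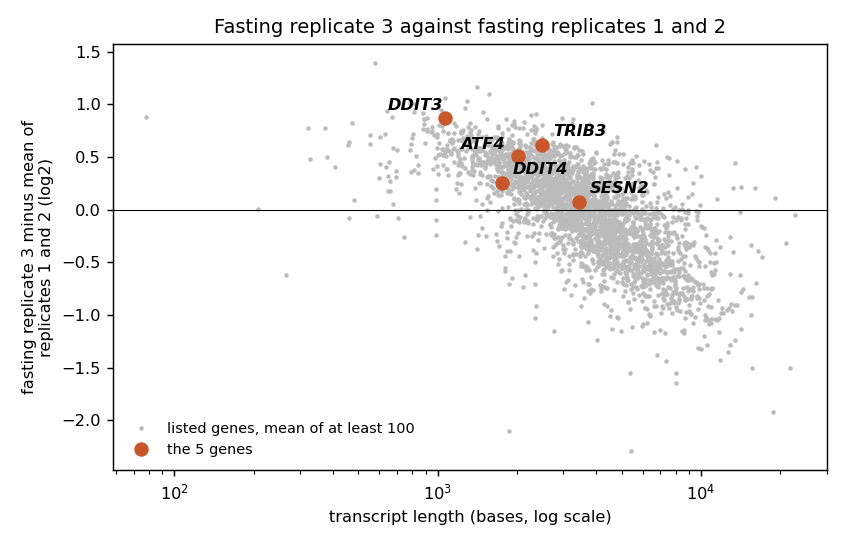
Difference of fasting replicate 3 from the mean of fasting replicates 1 and 2 (log2 units, vertical axis) against transcript length in bases (log axis), one grey point per listed gene with a mean of at least 100, and with ATF4, TRIB3, SESN2, DDIT3 and DDIT4 marked. Most short transcripts lie above 0 and most long ones below; DDIT3 is highest of the 5 at 0.87 and SESN2 sits near 0 at 0.07.

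Levels of different genes were compared per kilobase of transcript. In control medium the order was ATF4 (1200.4 ± 55.1 normalized counts per kilobase), TRIB3 (341 ± 8.23), SESN2 (156 ± 13.0), DDIT4 (71.1 ± 1.25) and DDIT3 (39.7 ± 0.73; SD, n = 3 for each). In fasting medium it was ATF4 (5325 ± 1147), TRIB3 (3210.4 ± 830.3), SESN2 (1556 ± 45.6), DDIT3 (635 ± 239.8) and DDIT4 (361 ± 38.0). No neighbours in either order had overlapping values. DDIT3 and DDIT4 changed places: DDIT3 was below DDIT4 in all 3 controls, and its fasting values of 475, 521 and 911 per kilobase were above those of DDIT4 at 330.4, 349 and 404.

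The ratio of each gene to ATF4 within a library does not depend on the scaling between libraries. The log2 ratio of TRIB3 to ATF4 was -1.51, -1.46 and -1.55 in the controls and -0.51, -0.42 and -0.37 in fasting medium. All fasting ratios were above all control ratios, by 1.08 on average. The exact two-sided permutation test of these ratios cannot go below p = 0.10 with 3 against 3 libraries, so it could call none of them, and the ratios are given as values. TRIB3 mRNA was higher relative to ATF4 mRNA in every fasting library than in any control.

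The log2 ratio of SESN2 to ATF4 was -2.22, -2.18 and -2.11 in the controls and -0.84, -0.83 and -1.27 in fasting medium, a difference of 1.19. That of DDIT3 was -5.80, -5.75 and -5.86 in the controls and -4.23, -4.06 and -3.79 in fasting medium, a difference of 1.78. In neither gene did the groups overlap. For DDIT4 the ratio was -4.24, -4.21 and -4.37 in the controls and -4.04, -3.93 and -4.25 in fasting medium. These overlap, since fasting replicate 3 lay below control replicates 1 and 2, and the difference was 0.20.

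**Figure D3:**
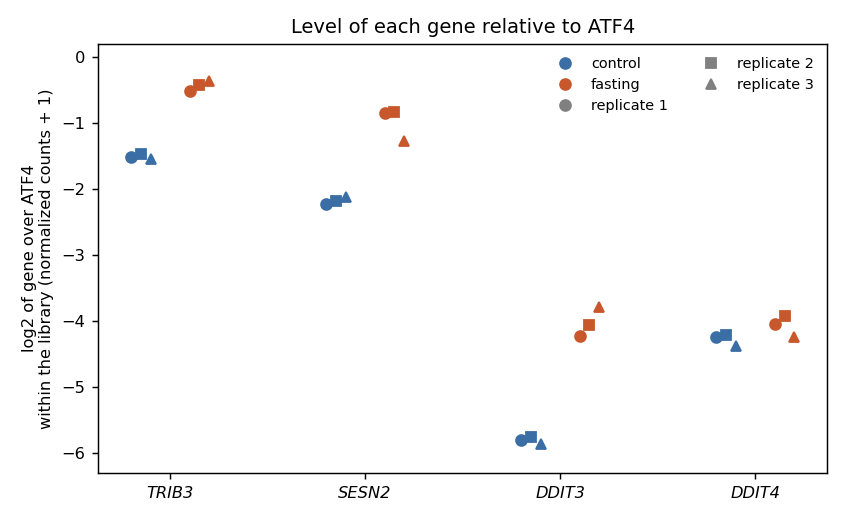
Log2 ratio of TRIB3, SESN2, DDIT3 and DDIT4 to ATF4 within each library, with control and fasting libraries side by side and the replicate number as the shape of the point. Control and fasting points are separate for TRIB3, SESN2 and DDIT3, and overlap for DDIT4.

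The promoter sequences below show the windows of SESN2, DDIT3 and DDIT4, which were searched for sites of the stress pathway because these genes rose together. RefSeq windows on GRCh38.p14, running from 250 bases before a gene's start to 50 after, were available for all 5 genes. Those of ATF4 and TRIB3 lie mostly in annotated untranslated exons and are not printed. Bases in untranslated exons were left out of the runs shown. Capitals mark the CCAAT box, the core site of the factor NF-Y, read as CCAAT or, from the other strand, ATTGG.
SESN2 (chr1:28259268-28259517, plus strand): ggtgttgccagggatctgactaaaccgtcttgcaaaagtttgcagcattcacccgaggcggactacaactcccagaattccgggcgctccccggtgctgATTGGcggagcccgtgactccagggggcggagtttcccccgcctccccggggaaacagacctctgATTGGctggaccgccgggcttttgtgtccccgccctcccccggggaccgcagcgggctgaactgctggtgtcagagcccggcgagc
DDIT3 (chr12:57520518-57520709, minus strand): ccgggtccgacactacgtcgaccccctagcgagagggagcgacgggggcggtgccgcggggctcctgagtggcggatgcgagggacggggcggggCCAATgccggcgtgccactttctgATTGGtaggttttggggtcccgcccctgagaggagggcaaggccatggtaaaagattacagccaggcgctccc
DDIT4 (chr10:72273674-72273919, plus strand): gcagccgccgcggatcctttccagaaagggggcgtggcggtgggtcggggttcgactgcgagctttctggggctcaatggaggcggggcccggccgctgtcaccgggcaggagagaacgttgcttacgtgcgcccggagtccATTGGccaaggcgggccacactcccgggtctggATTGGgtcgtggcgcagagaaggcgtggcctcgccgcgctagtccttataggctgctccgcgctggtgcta
Each of these windows holds 2 CCAAT boxes, and those of ATF4 and TRIB3 hold none in the 250 bases before the start. On either strand, a CCAAT box stands in 32.0% of all 35116 windows, so it is a common feature. The window of ATF4 holds the E-box CACGTG, which stands in 6.35% of windows.

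ATF4 binds as a heterodimer with C/EBP proteins to the C/EBP-ATF response element, searched here as TTNCATCA on both strands. None of the 5 genes holds it in its window, with or without the 50 bases after the start, and none holds the cAMP response element TGACGTCA. The first element is in 3.14% and the second in 1.65% of all windows. The absence of a match says only that these letters are not in these windows. Among the 43 listed genes of 4 lists of known ATF4 targets (amino acid synthesis, amino acid transport, tRNA synthetases, and ATF4 and DDIT3 stress effectors), 36 had a window, and 9 of them (25%) held the element in the 250 bases before the start. With the 50 bases after the start it was 16 of 36 (44.4%). Counted per gene in the same way, the shares over all 27305 genes with a window were 3.89% and 4.46%. The lists were drawn up from knowledge of ATF4 binding, so their shares describe them and are no test. The sites below are shown to set the element beside the windows of the 5 genes, which hold no match. They are a selection that includes the largest rises among list genes with the element. It also stood in GARS1 (log2 fold change 2.11) and CARS1 (2.08), and in genes of smaller rise such as NARS1 (0.67) and MARS1 (0.61). Capitals mark the element, and the rise of the gene stands after each name.
CHAC1 (log2 fold change 4.94; chr15:40953251-40953280, plus strand): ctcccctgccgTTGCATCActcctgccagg
ATF3 (4.13; chr1:212565205-212565234, minus strand): atatgacagccTTCCATCAtcctgaccttt
HERPUD1 (3.34; chr16:56931955-56931984, plus strand): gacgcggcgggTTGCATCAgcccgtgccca
SLC3A2 (3.29; chr11:62881725-62881748, plus strand): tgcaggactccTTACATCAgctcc
ASNS (2.94; chr7:97872458-97872487, plus strand): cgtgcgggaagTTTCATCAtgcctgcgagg
AARS1 (1.82; chr16:70289675-70289704, minus strand): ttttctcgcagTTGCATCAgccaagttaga
The element reads TTGCATCA in CHAC1, HERPUD1 and AARS1, TTCCATCA in ATF3, TTACATCA in SLC3A2 and TTTCATCA in ASNS.

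Close relatives of the 5 genes did not move as a block. Of TRIB1, TRIB2, SESN1, SESN3 and DDIT4L, 2 are listed. TRIB1, a pseudokinase of the same family as TRIB3, rose from 1269 ± 83.0 to 3568 ± 97.3 normalized counts (SD, n = 3 each), a log2 fold change of 1.49 (limma adjusted p = 4.08e-05). TRIB2, the other relative of TRIB3, fell from 77.3 ± 4.03 to 28.6 ± 1.85, a log2 fold change of -1.40 (limma adjusted p = 6.04e-04). TRIB1 and TRIB2 thus changed in opposite directions in the same cells, and both kept their direction and call under every scaling tried.

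Of 19 genes that sense stress at eIF2 or reset it, 5 are listed and 4 rose, with a median log2 fold change of 0.95 over the 5. Higher calls made up 49.7% of all listed genes (5.85% of the genes tested). PPP1R15A, or GADD34, which directs a phosphatase to eIF2 and so ends the response, had 1734, 1801 and 1793 normalized counts in the controls and 18468, 17875 and 23251 in fasting medium. This 11.1-fold rise (log2 fold change 3.47, standard error 0.11, limma adjusted p = 5.07e-06) is between those of SESN2 and DDIT3. EIF2AK3, or PERK, the eIF2 kinase of the endoplasmic reticulum, rose from 218 ± 18.8 to 493 ± 55.8 (log2 fold change 1.17). DNAJC3, an inhibitor of eIF2 kinases, rose by 0.95, and DELE1, which relays mitochondrial stress to an eIF2 kinase, by 0.87. GCN1, a coactivator of the amino acid sensing kinase GCN2, had 6551 ± 503 and 4179 ± 1276, a log2 fold change of -0.70 that did not pass (limma adjusted p = 0.12). Without fasting replicate 3 its log2 fold change was -0.42 and passed (limma adjusted p = 1.58e-04). With the length trend of each library removed it was -0.06 and did not pass (transcript of 8675 bases).

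**Figure D4:**
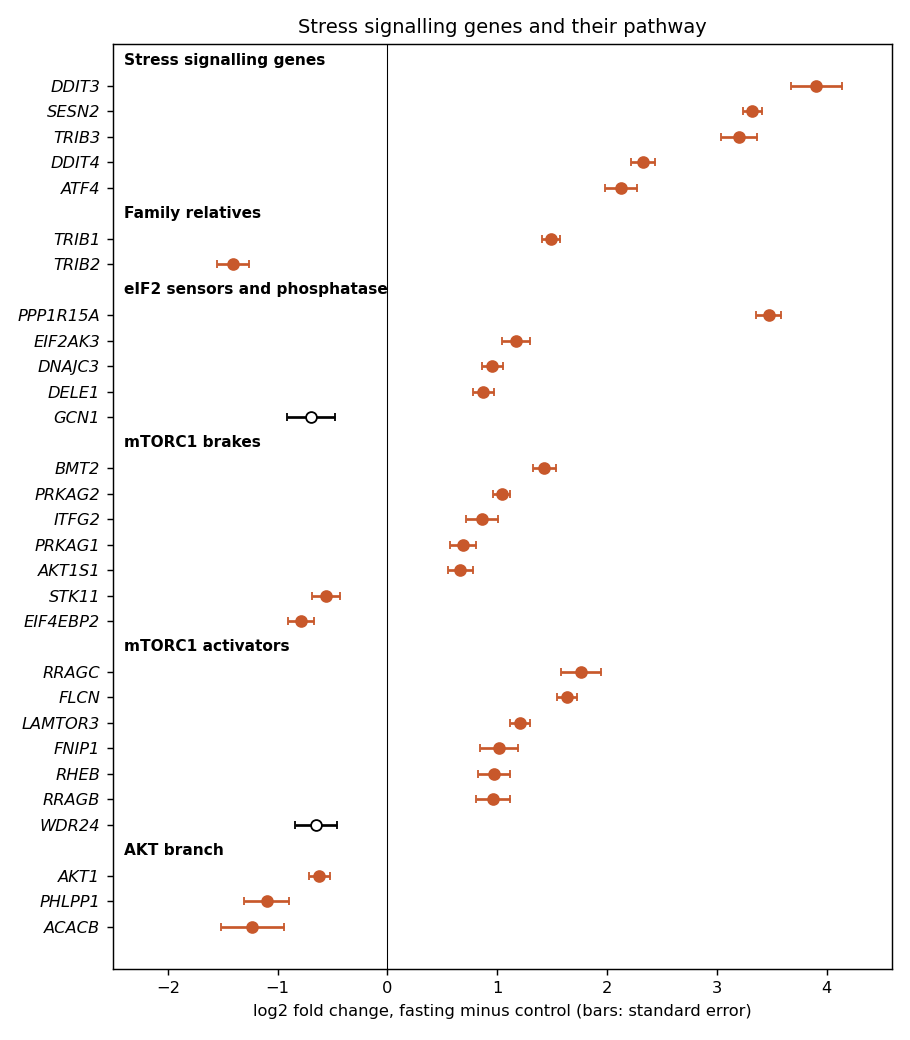
Log2 fold change (fasting minus control) with its standard error for the listed genes of eIF2 signalling, the mTORC1 brakes and activators, the AKT branch and the relatives of the 5 genes, with the 5 genes for comparison; filled points passed the limma test and open points did not. The 5 genes and PPP1R15A lie above 2, and no other gene in the plot does.

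SESN2 and DDIT4 act on mTORC1 beside many other proteins, and the listed ones changed less than SESN2 and DDIT4. Of 27 other genes that hold back mTORC1 or its effect on translation, 7 are listed. Of these 5 rose and 2 fell, and the median over the 7 was 0.69 on the log2 scale. Among all listed genes 49.7% passed as higher and 44.6% as lower. BMT2, or SAMTOR, which senses S-adenosylmethionine, rose from 252 ± 21.1 to 678 ± 43.8 (log2 fold change 1.43, limma adjusted p = 1.33e-04). PRKAG2 and PRKAG1, regulatory subunits of the energy sensor AMPK, rose by 1.04 and 0.69. ITFG2, a subunit of the KICSTOR complex, rose by 0.86 and AKT1S1, an mTORC1 subunit that inhibits it, by 0.67. EIF4EBP2, a repressor of cap-dependent translation, fell by 0.79 and lost its call with the length trend removed. STK11, or LKB1, the kinase that activates AMPK, had 1547 ± 87.3 and 1057 ± 184, a log2 fold change of -0.56 (limma adjusted p = 0.0251). The call of STK11 was lost when any single library other than fasting replicate 3 was left out (limma adjusted p = 0.0687 to 0.122).

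Of 24 genes that activate mTORC1 or carry its signal, 7 are listed and 6 rose, beside 49.7% of all listed genes that passed as higher. Brakes and activators thus both had listed genes that rose. RRAGC, a Rag GTPase that brings mTORC1 to the lysosome, rose from 129 ± 7.52 to 449 ± 123 (log2 fold change 1.76, limma adjusted p = 6.06e-04). FLCN, the folliculin protein that acts on RRAGC, rose from 207 ± 7.39 to 644 ± 29.5 (log2 fold change 1.63, limma adjusted p = 4.64e-05). LAMTOR3, part of the lysosomal anchor of the Rag GTPases, rose by 1.21, and FNIP1, the partner of FLCN, by 1.02. RHEB, the GTPase that switches mTORC1 on, rose by 0.97 and RRAGB by 0.96. WDR24, a subunit of GATOR2, the complex that SESN2 binds, had 303 ± 27.5 and 196 ± 51.9, a log2 fold change of -0.65 (limma adjusted p = 0.0824). Without fasting replicate 3 it was -0.85 and passed (limma adjusted p = 7.66e-05).

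TRIB3 also binds AKT. Of 11 genes around AKT, 3 are listed and all 3 fell. Lower calls made up 44.6% of all listed genes, and 11.8% of the genes tested are listed. AKT1 fell from 2240 ± 161 to 1457 ± 102 normalized counts (log2 fold change -0.62, limma adjusted p = 3.12e-03). PHLPP1, a phosphatase that acts on AKT, fell by 1.1 (limma adjusted p = 8.63e-03). ACACB, an acetyl-CoA carboxylase, fell by 1.23 (limma adjusted p = 0.0265). The call of ACACB was lost without control replicate 1, 2 or 3 (limma adjusted p = 0.0835 to 0.129), and with the length trend removed its log2 fold change was -0.55 (limma adjusted p = 0.0686). PHLPP1 and ACACB have transcripts of 6390 and 9360 bases and were lowest in fasting replicate 3, the library in which long transcripts were low. PHLPP1 kept its call with the length trend removed and with any single library left out. It lost its call in limma without moderation (adjusted p = 0.139), as did ACACB (0.263).

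In 4 lists of genes known to lie downstream of ATF4 and DDIT3, all 43 listed genes rose in the limma test. Of all listed genes 49.7% passed as higher, which is 5.85% of the genes tested. The 43 genes were 8 of 13 genes of amino acid synthesis, 9 of 11 amino acid transporters, 11 of 20 tRNA synthetases and 15 of 22 stress effectors. The median log2 fold changes were 1.70, 1.16, 1.42 and 2.05, against 0.53 over all listed genes and 3.20 over the 5 genes. That ATF4 targets rose in these samples was known when these lists were drawn up. The arginine transporter SLC7A1 lost its call when any single library other than fasting replicate 3 was left out (limma adjusted p = 0.0642 to 0.0765). Scaled to the total reads of the table (edgeR), the counts were 8 of amino acid synthesis, 6 transporters, 7 tRNA synthetases and 14 stress effectors. CTH, which makes cysteine from cystathionine, rose from 92.4 ± 19.98 to 944 ± 25.7 (log2 fold change 3.36, limma adjusted p = 2.08e-05), and MTHFD2, a mitochondrial folate enzyme, rose by 1.72. SLC7A5, the leucine importer, rose from 2650.2 ± 216.7 to 9767 ± 116 (log2 fold change 1.88). SLC7A11, the cystine importer, rose by 5.37. Of the tRNA synthetases WARS1 rose by 1.97 and AARS1 by 1.82. ATF3, a bZIP factor of the stress response, had 43.4, 46.2 and 39.2 normalized counts in the controls and 821, 686 and 798 in fasting medium (log2 fold change 4.13, limma adjusted p = 3.79e-06). HERPUD1, of the degradation pathway of the endoplasmic reticulum, rose by 3.34.

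Listed genes of other stress lists also rose in these libraries, where 49.7% of all listed genes passed as higher (5.85% of the genes tested). All 15 listed of 32 bZIP genes rose, with a median log2 fold change of 1.59, led by FOS at 4.67. BATF2 lost its call without control replicate 1, control replicate 3 or fasting replicate 1 (limma adjusted p = 0.0702 to 0.109), and JUNB without control replicate 1 (0.0542). All 14 listed of 16 genes of the endoplasmic reticulum stress sensors rose, with a median of 1.40, and HSPA5, the main chaperone of that compartment, rose by 2.14. SEL1L lost its call without control replicate 1 or 3 (limma adjusted p = 0.0518 and 0.0525). Of 20 targets of p53, 6 are listed and all 6 rose (median 0.91), among them GADD45A by 1.97 and CCNG1 by 0.97. TP53INP1 lost its call without control replicate 1 or 3 or fasting replicate 1 or 2 (limma adjusted p = 0.0768 to 0.0959). Scaled to the total reads of the table (edgeR), 13 bZIP genes, 11 of the endoplasmic reticulum list and 4 targets of p53 were higher. SESN2 and DDIT4 are known targets of p53 as well. Of 10 immediate early and heat shock genes, read here for handling stress, 8 are listed, and all of them rose (median 3.37). They do not measure RNA integrity. HSPA1B rose by 3.91, and counting could split its reads with its near-identical copy HSPA1A. The summed level of the 8 genes was 5896 to 6292 normalized counts in the controls and 42088 to 49303 in fasting medium. Their part in the rise of the 5 genes was not tested. The lists share genes, so their counts are not separate results. FOS, FOSB and ATF3 are also in the bZIP list. XBP1 is in the bZIP and endoplasmic reticulum lists, and HERPUD1 in the endoplasmic reticulum and stress effector lists. ATF3, ATF5, CEBPB and JDP2 are in both the bZIP and stress effector lists. PPP1R15A is in the eIF2 and stress effector lists, and DNAJC3 in the eIF2 and endoplasmic reticulum lists.

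**Figure D5:**
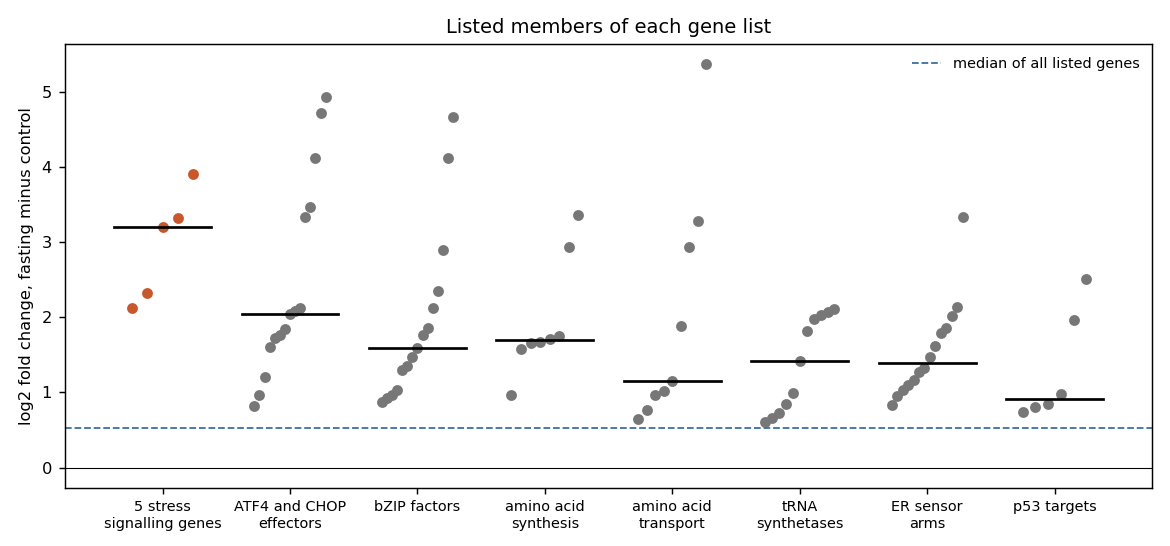
Log2 fold change (fasting minus control) of each listed gene in 8 lists, one column per list, with a black bar at the list's median; the dashed line is the median of all listed genes, 0.53. The column of ATF4, TRIB3, SESN2, DDIT3 and DDIT4 has its median at 3.20, and the other lists shown have medians of 0.91 to 2.05.

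The 5 genes had different profiles across the 6 libraries. Likeness was measured as the Euclidean distance between log2 profiles centred on the control mean, in log2 units. ATF4 and DDIT4 were the closest pair at 0.43, and TRIB3 and SESN2 the next at 0.50. DDIT3 was nearest to SESN2 at 1.22 and farthest from ATF4 at 3.10. This distance follows mainly the size of the rise, since the profiles are centred on the controls. By it the 5 genes fell into a pair with rises of 4 to 5-fold, a pair with rises of 9 to 10-fold, and DDIT3 above them. TRIB3 and SESN2 still differed in spread within the fasting group, with coefficients of variation of 25.9% and 2.93%. With the length trend removed DDIT3 lay between TRIB3 and SESN2 and no longer above them.

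Among listed genes whose mean reached 100 normalized counts in either group, the profile most like that of ATF4 was ZNF222, a zinc finger gene, at a distance of 0.149. It was followed by the growth factor PGF (0.185), DEDD2 (0.220), the gene ENSG00000275993 (0.222) and the seryl-tRNA synthetase SARS1 (0.227). Most like TRIB3 was SLC3A2 (0.141), the heavy chain of the SLC7A5 and SLC7A11 transporters, with 1792, 1828 and 1893 normalized counts in the controls and 15307, 15907 and 23625 in fasting medium. SAT1, an enzyme of polyamine breakdown (0.229), the HSP40 chaperone DNAJB1 (0.30), HERPUD1 (0.353) and RGS2 (0.457) came next. Most like SESN2 were HERPUD1 (0.259) and the HSP40 chaperone DNAJB4 (0.278), then a locus with no gene symbol (0.356), PPP1R15A (0.381) and SLC3A2 (0.454). SLC3A2 and HERPUD1 were thus among the 5 nearest of both TRIB3 and SESN2.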

How the data were processed

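RNA-seq of 6 RKO libraries was used, 3 per group, grouped by the treatment label. The deposited table holds 1 signal per gene and library with no named unit. From the values these are normalized read counts: 100% were whole multiples of 1 read's worth within 0.01 read, with size factors of 0.727 to 1.41. Beside these stand the authors' deposited log2 fold change and their p-value, raw and adjusted. Every listed gene had an adjusted p under 0.05 there (highest 0.04999), so the table is selected on the outcome. DESeq 1.10.1, HTSeq 0.6.1 and UMI-tools 1.0.0 are named in the submitters' processing notes without their roles. The aligner is not given in the sources used here, and neither is the build. The shared protocol text gives the low-serum medium for all samples, and the drug treatments in the design text were not analysed here.

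The main test was limma 3.58.1 (R 4.3.3), with trended empirical Bayes variances, run on log2(normalized count + 1) of genes whose mean reached 1 in either group. Tests were two-sided, with Benjamini-Hochberg adjustment over the 29845 genes the authors tested, unlisted genes at p = 1, and a threshold of 0.05. Fold changes are fasting over control on this scale, where changes of low genes come out too small. Moderation was estimated on listed genes alone. Alternatives were edgeR 4.0.16 and DESeq2 1.42.0 on the recovered reads (which called 3359 and 3482 listed genes with the deposited scaling), other scalings, pseudocounts and filters, a replicate block, each library left out, and the trend with transcript length removed by lowess. The scripts were tested on simulated data. The labels do not say that libraries of a group came from separate cultures. A p-value here thus reflects the spread among libraries, possibly technical.

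The genes and lists were chosen with earlier results of these data known. Named genes are the 5 genes. From each list they are the 2 called genes of smallest adjusted p and the first called in the opposite direction. All listed relatives and genes of the eIF2, mTORC1 and AKT lists, and the 5 nearest profiles of ATF4, TRIB3 and SESN2, are named too. CHAC1, SLC3A2 and ASNS, whose sites are printed, MARS1 and MBD6, which overlap DDIT3, and SLC7A1, BATF2, JUNB, SEL1L and TP53INP1, whose calls changed with 1 library left out, were chosen after their values were seen. GARS1, CARS1 and NARS1, which hold the C/EBP-ATF element, were also chosen after their values were seen. Symbols matched 3467 of 3511 identifiers. Transcript lengths are of GENCODE v29 and promoter windows of RefSeq (GRCh38.p14).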

Additional observations from a re-analysis of the deposited data

How the results depend on the processing

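ATF4, TRIB3, SESN2, DDIT3 and DDIT4 stayed higher and past the threshold in all 18 alternatives, with log2 fold changes of 1.66 to 2.34, 2.74 to 3.43, 2.85 to 3.52, 3.28 to 4.19 and 1.86 to 2.54, and a highest adjusted p of 0.0105 (ATF4, limma without moderation). Relative to the authors' scaling, scaling to the total reads of the table moved the median log2 fold change of listed genes by -0.47 and RLE scaling by 0.21, and the listed genes cannot decide between them. Of the listed genes 1745 passed as higher and 1567 as lower. Limma without moderation called 1134 and 847 (1981 in all, against 3312), and total-read scaling 879 and 1734, so that 33.6% of calls were higher against 52.7%. Replicate numbers are shared between the groups, but the deviations of same-numbered libraries correlated by only 0.03, 0.03 and 0.08, and not every library correlated best with its own number. With a replicate block 1715 genes passed as higher and 1578 as lower.

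Counts in small lists moved as follows. Under total-read scaling 7 tRNA synthetases (from 11), 6 transporters (from 9), 11 endoplasmic reticulum genes (from 14), 13 bZIP genes (from 15), 4 p53 targets (from 6), 14 stress effectors (from 15), 3 eIF2 genes (from 4), 4 mTORC1 activators (from 6) and 2 brakes (from 5) were higher, and 1 eIF2 gene and 1 mTORC1 activator (from 0) were lower. Without moderation 12 bZIP genes, 7 transporters, 7 of 8 amino acid synthesis genes, 14 stress effectors, 13 endoplasmic reticulum genes and 4 p53 targets were higher. So were 7 of 8 immediate early and heat shock genes, 4 activators and 2 brakes. In that setting 0 brakes were lower (from 2), and 1 gene of the AKT branch was lower (from 3). RLE scaling and length correction each left 1 brake lower. DESeq2 with the deposited scaling called 1 eIF2 gene and 1 activator lower, and the block, TMM scaling and length correction 1 activator. With one library left out these counts ranged from 1 to 2 for brakes lower and from 0 to 1 for both eIF2 genes and activators lower. Of promoters of listed ATF4 targets, 16 held the C/EBP-ATF element in the wide window against 9. The causes were not tested. Total depth is unknown, so no limit of detection is given for genes outside the table.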

Other observations

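Across the whole table, the C/EBP-ATF response element TTNCATCA stood in the promoter window (250 bases before to 50 after the start) of 66 of 1226 genes that passed as higher (5.38%). It stood in 30 of 1219 that passed as lower (2.46%), and in 21 of 159 that passed as higher with a log2 fold change of at least 2 (13.2%). Over all genes with a RefSeq window it stood in 4.46%. These shares are descriptions with no test, and the third group holds some of the known ATF4 targets. OSGIN1 was nearest to DDIT3 (distance 0.340, log2 fold change 3.86) and IFRD1 nearest to DDIT4 (0.201, log2 fold change 2.27), both chosen after their values were seen.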
